A study of Homo sapiens with 3 samples.

Results

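VCAM1 and 9 further cell adhesion molecules with immunoglobulin-like domains were followed across a parental hepatocellular carcinoma (HCC) cell line and a pair of metastatic subclones of it. The genes were taken by symbol and comprised VCAM1, ICAM1, ICAM3, ALCAM, MCAM, BCAM, L1CAM, NCAM1, F11R and CEACAM1, which were 10 of the 16149 genes listed in at least 1 of the 3 libraries. The labels give the line as HCCLM3, a human HCC line. Per the study's methods the parental cells were HCCLM3-R, made from it to carry red fluorescent protein, and the subclones were monoclonal lines, each grown from 1 cell of a metastatic focus in nude mice. The labels assign the parent a low ability to metastasize, although the study's methods describe the line as highly metastatic. Subclone 1 is labelled for metastasis to the lung and subclone 2 for metastasis to both the lung and the celiac lymph node. All 3 were cultured in DMEM with no further agent named in the labels, and total RNA of 1 culture each was sequenced. The mice, where the subclones arose, contributed no sample, and 1 clone stands for each tropism. Which of the study's named monoclonal lines the sequenced subclones are is not given in the sources used here. Clonal differences therefore cannot be told apart from differences in tropism.

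Adhesion molecules of the immunoglobulin superfamily are membrane proteins whose extracellular part is a row of immunoglobulin-like domains. Some bind a like molecule on the neighbouring cell, and others bind integrins or sugar-binding and matrix proteins. VCAM1 and ICAM1 are best known from endothelium, where inflammatory cytokines induce them through NF-kB and where circulating leukocytes attach to them through the integrins VLA-4 and LFA-1. Carcinoma cells can carry several of these molecules on their own surface.

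Each library held between 4488825 and 4725150 reads assigned to genes, as rebuilt from the deposited RPKM (reads scaled to the length of the gene and to the assigned reads of the library). With 1 library per line no test between lines was possible, and no p-value is given. A 95% counting interval stands beside each value, exact Poisson for a level and Clopper-Pearson for a fold. It covers counting error only, for reads without molecular identifiers, and it compares libraries rather than cell lines. In such bulk RNA, fewer cells carrying a transcript and less of it per cell cannot be told apart.

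The sequences below show which stretch of VCAM1 the study's real-time PCR read, and the 250 bases before the RefSeq start of 4 genes. Of the 10 genes 8 were matched to a RefSeq start by symbol, all but F11R and NCAM1. Shown are VCAM1, ICAM1 and CEACAM1, from among the genes above the parent in both subclones, and MCAM, which lay below it. The VCAM1 primers, of 21 bases each, were these:

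VCAM1 forward: GGGAAGATGGTCGTGATCCTT
VCAM1 reverse: TCTGGGGTGGTCTCGATTTTA

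They enclosed 89 bases of coding sequence joined across exons 1 and 2 of VCAM1, at chr1:100719867-100720506 on the plus strand of GRCh38 with the intron between them left out of the sequence. The product was found in 5 annotated VCAM1 transcripts and in 0 other genes. Capitals mark the primer sites.

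VCAM1 product: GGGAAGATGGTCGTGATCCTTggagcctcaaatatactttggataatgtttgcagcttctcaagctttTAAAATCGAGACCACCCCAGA

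The upstream windows, from RefSeq (GRCh38.p14) and written in the direction of transcription, were chr1:100719492-100719741 (plus strand) for VCAM1, chr19:10270870-10271119 (plus) for ICAM1, chr19:42528482-42528731 (minus) for CEACAM1 and chr11:119317131-119317380 (minus) for MCAM. The GENCODE places given further on put the start of ICAM1, CEACAM1 and MCAM farther upstream, so that these 3 windows lie inside the GENCODE gene. Capitals mark matches to a 10-letter NF-kB motif, searched on both strands. It was written KGGRNNYYCC, where K is G or T, R is A or G, Y is C or T and N is any base.

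VCAM1 upstream: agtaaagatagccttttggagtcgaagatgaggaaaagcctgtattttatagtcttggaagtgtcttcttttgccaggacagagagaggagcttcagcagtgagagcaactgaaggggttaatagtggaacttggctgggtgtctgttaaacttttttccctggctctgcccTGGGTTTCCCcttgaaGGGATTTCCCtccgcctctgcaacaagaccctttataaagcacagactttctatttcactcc
ICAM1 upstream: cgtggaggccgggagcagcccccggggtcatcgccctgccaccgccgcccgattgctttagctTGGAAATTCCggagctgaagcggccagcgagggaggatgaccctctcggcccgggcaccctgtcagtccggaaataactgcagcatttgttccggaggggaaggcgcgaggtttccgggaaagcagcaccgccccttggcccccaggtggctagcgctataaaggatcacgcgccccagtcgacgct
CEACAM1 upstream: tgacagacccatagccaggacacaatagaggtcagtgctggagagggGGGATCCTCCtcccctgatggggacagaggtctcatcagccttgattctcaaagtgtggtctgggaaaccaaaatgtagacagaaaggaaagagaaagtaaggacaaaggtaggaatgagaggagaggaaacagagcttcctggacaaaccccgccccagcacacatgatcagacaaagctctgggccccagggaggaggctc
MCAM upstream: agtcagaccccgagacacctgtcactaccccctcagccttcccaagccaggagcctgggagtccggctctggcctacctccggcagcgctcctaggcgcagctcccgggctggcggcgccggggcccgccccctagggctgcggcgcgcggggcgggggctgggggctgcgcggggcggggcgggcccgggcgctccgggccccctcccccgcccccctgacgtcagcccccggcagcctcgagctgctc

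VCAM1 held the motif at 2 places, 78 to 69 and 62 to 53 bases before the RefSeq start, ICAM1 at 1 place (187 to 178) and CEACAM1 at 1 place (203 to 194). The first window of ICAM3 also held 2 places, and those of ALCAM, MCAM, BCAM and L1CAM held 0. Of 35116 upstream windows of the same length, 17.5% held the motif and 2.24% held it at 2 or more places. The motif was chosen with the known sites of VCAM1 and ICAM1 in mind, so that the matches there describe the sequence and are no result. These matches were letters only, and no binding was measured.

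ALCAM, ICAM1 and CEACAM1 were the most abundant of the 10 transcripts in every library, and NCAM1 was at or below the limit of detection in all 3. The 10 genes summed to 189.6 RPKM in the parental cells, 260.5 in subclone 1 and 283.4 in subclone 2. ALCAM held 51.1% of that sum in the parental cells, 30.2% in subclone 1 and 33.6% in subclone 2. VCAM1 held 1.24%, 5.97% and 10.4% in the same order. Its rank among the 10 was 8 in the parent and 5 in both subclones. RPKM is scaled to gene length, so these levels can be set beside each other only roughly. Neither that scaling nor the counting intervals cover sequence shared between genes, overlapping genes or transcript variants.

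**Figure D1:**
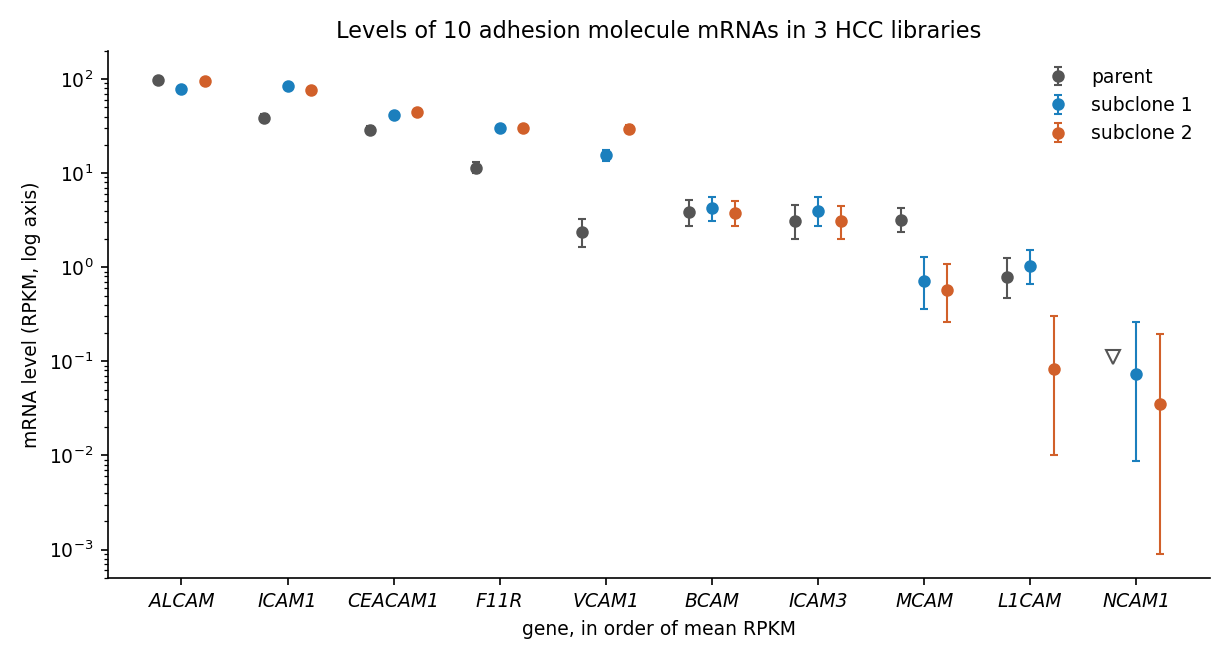
RPKM of the 10 adhesion molecules in the parent, subclone 1 and subclone 2 (log axis), 1 library each. Points are levels and bars are exact 95% Poisson intervals of the reads behind them. The open triangle marks 0 reads, at the level that 3 reads would give. VCAM1 lies at 2.35 RPKM in the parent and 29.4 in subclone 2, MCAM is highest in the parent, and L1CAM is lowest in subclone 2.

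Not every neighbour in the order of levels was separate. In the parent, the intervals of BCAM and MCAM, of MCAM and ICAM3, and of ICAM3 and VCAM1 overlapped. In subclone 1 this held for ICAM1 and ALCAM, for BCAM and ICAM3 and for L1CAM and MCAM. In subclone 2 it held for F11R and VCAM1, for BCAM and ICAM3, for MCAM and L1CAM and for L1CAM and NCAM1. All other neighbours in the order had intervals that did not overlap.

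Of the 10 genes, 8 passed the filter of a mean of at least 1 RPKM over the 3 libraries, and L1CAM and NCAM1 did not. On the log2(RPKM + 0.1) scale, subclone 1 exceeded the parent by 2-fold or more for VCAM1, ICAM1 and F11R, that is for 3 of the 8, and for 4.90% of the 11370 genes that passed. Subclone 2 did so for VCAM1 and F11R (2 of the 8, against 5.33% of genes). ICAM1 lay close to this limit, and it fell under it in subclone 1 when scaled to ACTB (log2 ratio 0.98) and passed it in subclone 2 when scaled to GAPDH (1.02). MCAM was the 1 gene of the 8 at least 2-fold lower, in subclone 1 (1.82% of genes) and in subclone 2 (2.16%). It passed the filter only through its level in the parent, 3.21 RPKM against 0.716 in subclone 1 and 0.572 in subclone 2. The filter thus favoured a call of lower for MCAM. The comparisons of subclone 1 and of subclone 2 with the parent use the same parental library, so they are no independent evidence of each other. The median log2 ratio of the 8 was 0.44 in subclone 1 over the parent, against 0.00 for all genes that passed, and 0.31 in subclone 2 over the parent, against 0.04. Between the subclones, 0 of the 8 were at least 2-fold apart in either direction, with 1.42% of genes higher and 1.39% lower in subclone 2, and the median was -0.07, against 0.03.

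**Figure D2:**
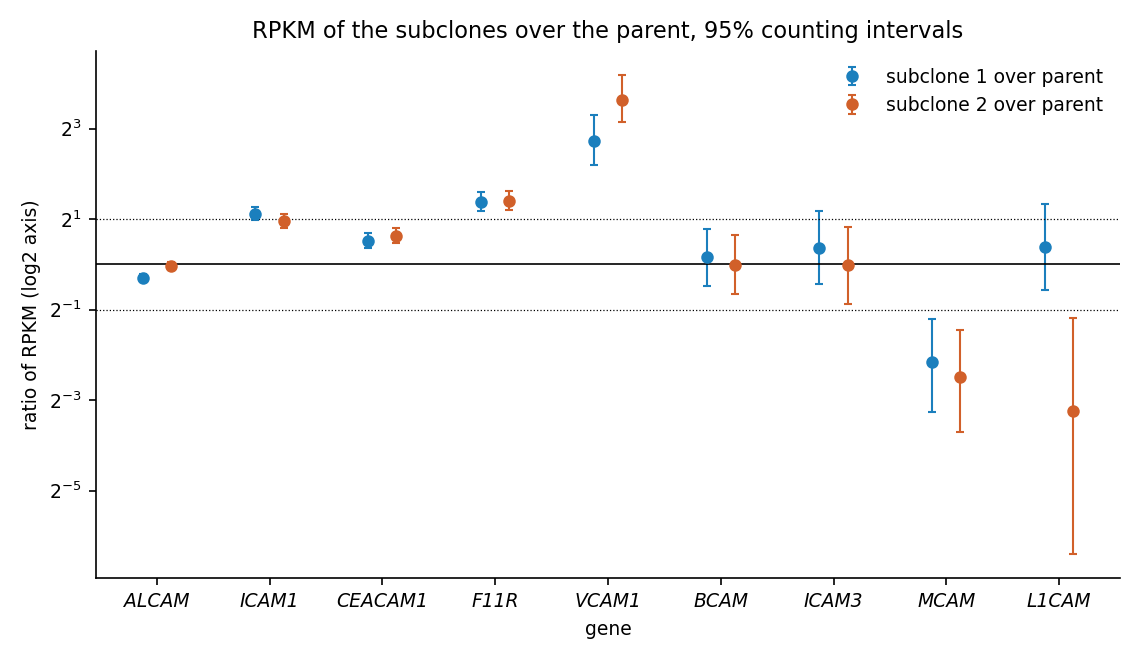
Ratio of RPKM in each subclone over the parent (log2 axis) for 9 of the adhesion molecules, NCAM1 left out for lack of reads. Bars are 95% Clopper-Pearson intervals, the solid line marks equal levels and dotted lines mark 2-fold. VCAM1 lies at 6.62-fold and 12.5-fold over the parent, and the intervals of ICAM3 and BCAM include 1 in both comparisons.

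Among the receptors for leukocyte integrins, VCAM1, which binds VLA-4, was lowest in the parent at 2.35 RPKM (1.63 to 3.29, 34 reads). It measured 15.6 RPKM (13.6 to 17.7, 231 reads) in subclone 1 and 29.4 RPKM (26.7 to 32.2, 447 reads) in subclone 2. The 3 intervals did not overlap. Relative to the parent the fold was 6.62 (4.60 to 9.78) in subclone 1 and 12.5 (8.81 to 18.3) in subclone 2, and subclone 2 was 1.89 times subclone 1 (1.61 to 2.22). VCAM1 lies at chr1:100719742-100739045 on the plus strand, and no other gene of the annotation overlaps it. The study singled out VCAM1 by real-time PCR and by protein, in monoclonal lines of the same origin and in their xenografts. It also states that its own mRNA sequencing bore out the differences of VCAM1 among the subclones. The direction of VCAM1 here is therefore not independent evidence.

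ICAM1, the ligand of LFA-1, was already abundant in the parent at 39.0 RPKM (35.9 to 42.4, 569 reads). It stood at 84.5 RPKM (79.9 to 89.2, 1265 reads) in subclone 1 and at 75.8 RPKM (71.5 to 80.2, 1163 reads) in subclone 2. Unlike VCAM1, it was not higher in subclone 2 than in subclone 1. Its fold was 2.16 (1.96 to 2.39) in subclone 1 over the parent, 1.94 (1.75 to 2.15) in subclone 2 over the parent and 0.897 (0.828 to 0.972) between the subclones. ICAM3, another ligand of LFA-1 that is best known from resting leukocytes, was low throughout, at 3.10 RPKM in the parent (25 reads), 3.99 in subclone 1 (33 reads) and 3.06 in subclone 2 (26 reads). The intervals of its 3 folds all included 1, from 0.769 (0.441 to 1.33) to 1.29 (0.741 to 2.25). ICAM1 (chr19:10270835-10286615, plus strand) and ICAM3 (chr19:10333776-10339823, minus strand) both overlap annotated antisense transcripts, and whether the counting used strand is not given in the sources used here.

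F11R encodes JAM-A, a molecule of tight junctions that can also bind LFA-1. It measured 11.5 RPKM (10.1 to 13.0, 249 reads) in the parent, 30.0 (27.8 to 32.4, 668 reads) in subclone 1 and 30.4 (28.2 to 32.8, 694 reads) in subclone 2. Both subclones lay above the parent and their own intervals overlapped. The folds were 2.61 (2.26 to 3.03) and 2.65 (2.29 to 3.07) over the parent and 1.01 (0.910 to 1.13) between the subclones. F11R lies at chr1:160995211-161021348 on the minus strand, where a second protein-coding annotation, AL591806.3, overlaps it on the same strand.

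CEACAM1, which binds itself and other CEACAM molecules on opposed cells and signals through phosphatases, measured 28.98 RPKM (26.4 to 31.8, 459 reads) in the parent. It measured 41.8 RPKM (38.7 to 45.0, 679 reads) in subclone 1 and 45.1 RPKM (41.9 to 48.5, 752 reads) in subclone 2. Its fold over the parent was 1.44 (1.28 to 1.63) and 1.56 (1.38 to 1.75), above 1 beyond counting error but below 2-fold, and 1.08 (0.973 to 1.20) between the subclones. CEACAM1 (chr19:42507304-42561234, minus strand) shares near-identical stretches with other CEACAM genes, and how shared reads were counted is not given in the sources used here.

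MCAM went the other way. This molecule, also called CD146, is known from endothelium and melanoma and binds laminins and growth factor receptors. It measured 3.21 RPKM (2.37 to 4.25, 48 reads) in the parent, 0.716 (0.358 to 1.28, 11 reads) in subclone 1 and 0.572 (0.261 to 1.09, 9 reads) in subclone 2. The parent stood apart from both subclones, whose intervals overlapped. Relative to the parent the fold was 0.223 (0.105 to 0.436) in subclone 1 and 0.178 (0.0768 to 0.367) in subclone 2, and the subclones differed by 0.798 (0.292 to 2.12). MCAM lies at chr11:119308529-119321521 on the minus strand and overlaps CBL on the opposite strand, and CBL had log2 ratios over the parent of 0.05 (subclone 1) and 0.33 (subclone 2).

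ALCAM, which binds itself and the lymphocyte receptor CD6, was the most abundant gene of the 10 in the parent and in subclone 2. It measured 96.8 RPKM (92.7 to 101.1, 2069 reads) in the parent, 78.7 (75.0 to 82.5, 1727 reads) in subclone 1 and 95.1 (91.2 to 99.3, 2140 reads) in subclone 2. Subclone 1 lay below the other libraries, whose intervals overlapped. The folds were 0.813 (0.762 to 0.867) and 0.983 (0.925 to 1.04) over the parent and 1.21 (1.13 to 1.29) between the subclones. ALCAM lies at chr3:105366909-105576900 on the plus strand.

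BCAM, the Lutheran antigen and a receptor for the laminin alpha-5 chain, differed between the 3 libraries by less than counting error, on 42 to 48 reads. It measured 3.82 RPKM in the parental cells, 4.25 in subclone 1 and 3.80 in subclone 2. Its folds ran from 0.894 (0.580 to 1.38) between the subclones to 1.11 (0.720 to 1.73) in subclone 1 over the parent, so differences of up to 1.73-fold lie within counting error. BCAM lies at chr19:44809059-44821421 on the plus strand.

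L1CAM and NCAM1, both best known as neural adhesion molecules, had the fewest reads in total. L1CAM measured 0.795 RPKM (0.471 to 1.26, 18 reads) in the parent, 1.03 (0.661 to 1.54, 24 reads) in subclone 1 and 0.0839 (0.0102 to 0.303, 2 reads) in subclone 2. Subclone 2 lay below the other libraries, and the intervals did not overlap. Relative to the parent the fold was 1.30 (0.676 to 2.54) in subclone 1 and 0.106 (0.0119 to 0.441) in subclone 2, and subclone 2 over subclone 1 was 0.0813 (0.00931 to 0.327). L1CAM (chrX:153861514-153886174, minus strand) overlaps U52112.1 on the same strand. NCAM1 (chr11:112961247-113278436, plus strand) had 0 reads in the parent, where 3 reads would be 0.112 RPKM, 2 reads in subclone 1 and 1 in subclone 2. No fold is given for NCAM1.

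Reading the counting interval in place of the 2-fold limit, a rule chosen after the values were seen, added CEACAM1 in both subclones and ICAM1 in subclone 2. Then VCAM1, ICAM1, F11R and CEACAM1 (4 of the 8) lay above the parent in subclone 1, where 20.1% of genes did, and the same 4 in subclone 2, where 22.9% did. ALCAM and MCAM lay below the parent in subclone 1 (19.2% of genes), and MCAM in subclone 2 (18.2%). As stated above, MCAM passed the filter only through its level in the parent. Between the subclones, VCAM1 and ALCAM lay higher in subclone 2 (11.9% of genes) and ICAM1 lower (8.62%).

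Genes resembling VCAM1 were sought among the 11370 by the distance in the pair of log2 ratios over the parent, across 3 libraries. The 5 nearest were SLPI, CX3CL1, CLRN3, CLDN1 and LCN2. LCN2, a secreted iron-siderophore carrier, measured 37.4 RPKM in the parental cells, 268.8 in subclone 1 and 542.7 in subclone 2, at distance 0.32. SLPI, a secreted inhibitor of serine proteases, measured 2.24, 13.4 and 29.4 RPKM at distance 0.16, close to the levels of VCAM1. CLDN1, a claudin of tight junctions, measured 0.774, 5.84 and 12.7 RPKM at distance 0.30. The others were lower in reads. CX3CL1, a membrane-bound chemokine, had 2, 18 and 43 reads (distance 0.23) and CLRN3 measured 0.759, 5.54 and 8.65 RPKM on 4, 30 and 48 reads (distance 0.24). Without the added 0.1 RPKM, CX3CL1 was 8.76-fold (2.10 to 77.9) and 20.4-fold (5.32 to 174) the parent, against 6.62 and 12.5 for VCAM1. The added 0.1 thus weighs on its distance. The level of all 5 was lowest in the parent and highest in subclone 2, although for CLRN3 the fold between the subclones, 1.56 (0.969 to 2.55), did not exceed counting error. The selection fixes that pattern, and with 3 libraries many genes can share it.

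**Figure D3:**
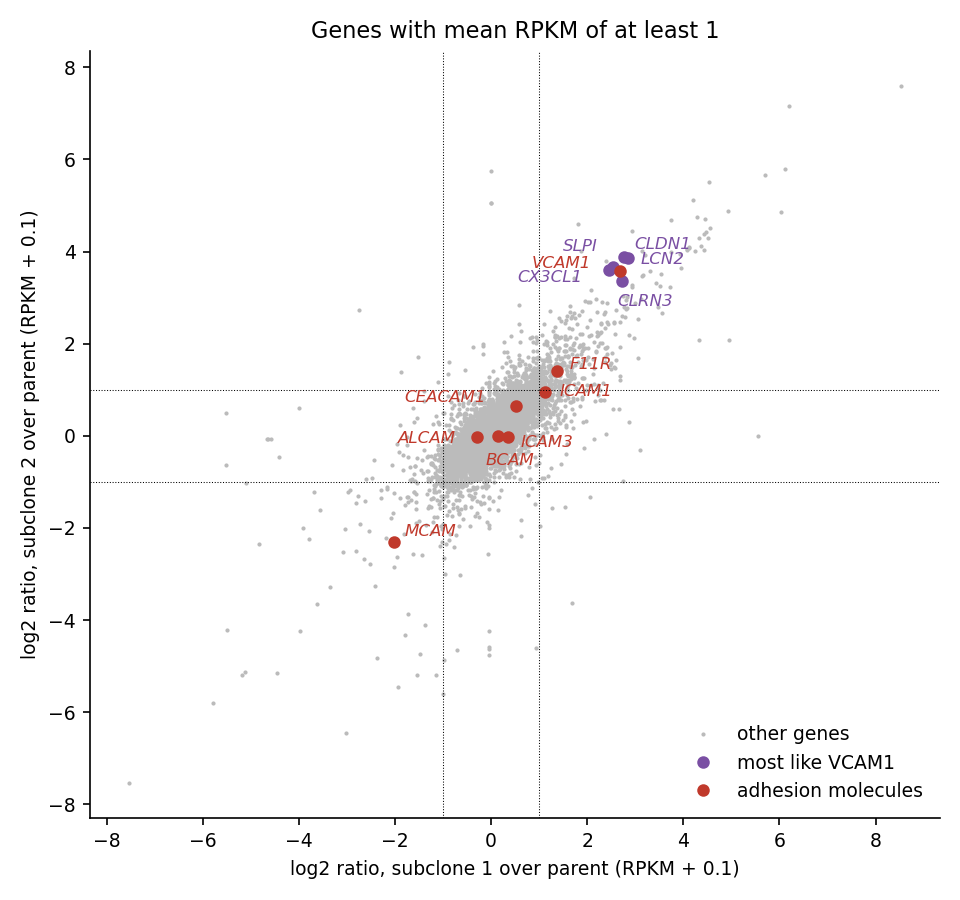
Log2 ratio of (RPKM + 0.1) in subclone 1 over the parent (horizontal) against subclone 2 over the parent (vertical), for genes with a mean of at least 1 RPKM. Both axes share the parental library, so they are not independent. Dotted lines mark 2-fold, and VCAM1 sits at 2.68 and 3.59 beside the 5 genes chosen for likeness to it, with MCAM at -2.02 and -2.30.

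Beyond the 10, 48 of 68 listed adhesion molecules of the same superfamily were found in at least 1 library, and 26 had a mean of at least 1 RPKM. Of these 26, subclone 1 exceeded the parent 2-fold for 5 and fell short of it 2-fold for 1, and subclone 2 gave the same pair of counts. Among all genes that passed, the shares were 4.90% and 1.82% in subclone 1 and 5.33% and 2.16% in subclone 2. The median log2 ratios of the 26 were 0.21 and 0.31, against 0.00 and 0.04 for all genes that passed. BSG (basigin) was the most abundant on average, at 153.0, 218.6 and 207.2 RPKM. CEACAM6, a CEACAM anchored in the outer leaflet, was the lower one in both. It measured 328.2 RPKM in the parent (3876 reads), 41.3 in subclone 1 (501 reads) and 141.9 in subclone 2 (1764 reads), at log2 ratios of -2.99 and -1.21. Its direction over the parent was opposite to that of CEACAM1.

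SIRPA, the receptor of CD47 on myeloid cells, measured 2.49 RPKM in the parental cells, 10.3 in subclone 1 and 13.2 in subclone 2, which is 4.12-fold (2.99 to 5.79) and 5.32-fold (3.89 to 7.41) the parent. PECAM1, an endothelial and leukocyte molecule, measured 3.33, 9.81 and 4.46 RPKM (log2 ratios 1.53 and 0.41). VSIG1 measured 25.6, 34.9 and 72.9 RPKM (0.45 and 1.51). VSIG1 thus stood apart in subclone 2 and PECAM1 in subclone 1. Further genes past 2-fold included VSIG10L (log2 ratios 1.21 and 0.51), IGSF3 (0.91 and 1.22) and VSIG2. The last had 13 reads or fewer in each library and was 3.57-fold (0.943 to 19.9) and 4.12-fold (1.13 to 22.5) the parent. ICAM2, the close relative of ICAM1, measured 2.14, 2.73 and 3.76 RPKM.

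Several integrin partners of these molecules were at or near 0 in all 3 libraries. ITGA4, the chain that pairs with ITGB1 or ITGB7 to bind VCAM1, was not listed in any library. ITGB1 was abundant at 288.0 RPKM in the parental cells, 356.2 in subclone 1 and 321.6 in subclone 2, and ITGA9, another partner for VCAM1, had 2 reads in subclone 1 and 0 elsewhere. The LFA-1 chains ITGAL and ITGB2 had 7 reads or fewer in each library. Of 12 integrin chains, 5 passed the filter. ITGA5, which pairs with ITGB1, measured 40.0, 80.9 and 57.2 RPKM and was past 2-fold in subclone 1. ITGB3, a partner of ITGAV (58.6, 64.5 and 52.7 RPKM), measured 0.819, 2.57 and 0.216 RPKM, higher than the parent in subclone 1 and lower in subclone 2, by log2 ratios of 1.54 and -1.54 on 18, 58 and 5 reads. ITGB3 passed the filter only through its level in subclone 1, so the filter favoured a call of higher there.

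**Figure D4:**
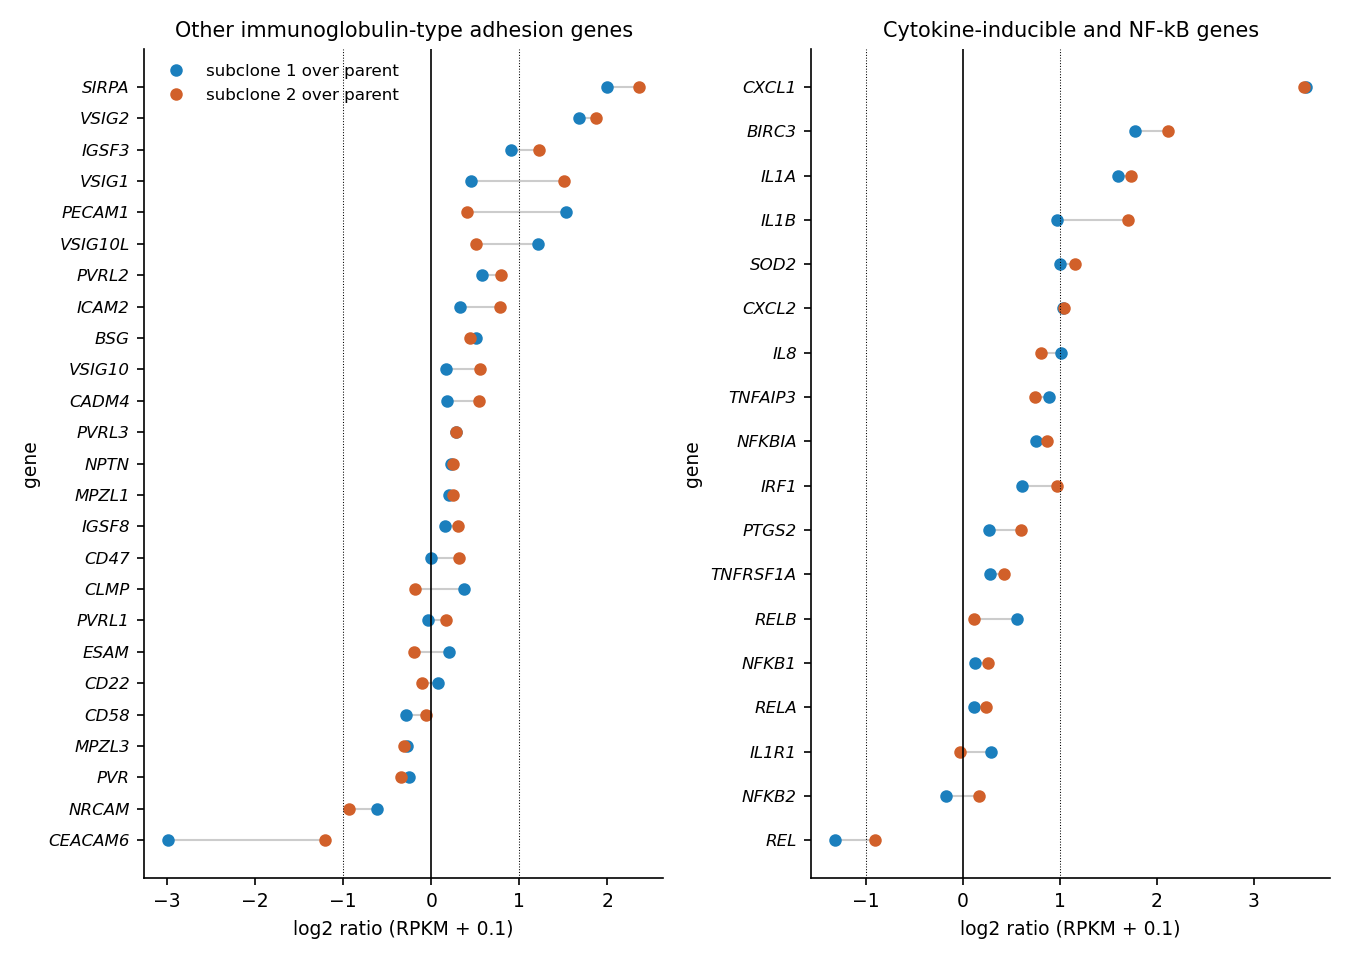
Log2 ratio of (RPKM + 0.1) over the parent in each subclone, for genes with a mean of at least 1 RPKM. Left are other immunoglobulin-like adhesion molecules. Right are the 18 listed cytokines, cytokine receptors, NF-kB subunits and cytokine-induced genes. Dotted lines mark 2-fold. CEACAM6 lies at -2.99 and -1.21, and CXCL1 at 3.54 and 3.52.

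No other ligand or co-receptor of the 10 was past 2-fold among the 7 of 14 that passed the filter, and their medians were 0.33 and 0.20. LGALS1, the most abundant, measured 201.5, 272.5 and 224.6 RPKM, and LAMA5, the laminin chain that BCAM binds, 8.21, 15.4 and 12.3. CD6, the receptor of ALCAM, was not listed. None of the 16 cytoplasmic anchors that passed, of 19, was past 2-fold (medians 0.11 and 0.18), MSN being the most abundant at 369.9, 304.2 and 261.3 RPKM. Of 6 sheddases and modifiers that passed, of 11, MMP14 was higher in subclone 1 (8.08 RPKM in the parent against 17.9 in subclone 1 and 15.8 in subclone 2) and the metalloprotease inhibitor TIMP3 was lower (62.3, 30.8 and 42.8). ADAM17, which sheds VCAM1, measured 7.30, 11.9 and 9.48 RPKM, and the medians of the list were 0.29 and 0.15.

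A list of cytokines and their receptors, NF-kB subunits and genes known to be induced with VCAM1 and ICAM1 by inflammatory cytokines was also examined. Of 25, 18 passed the filter. Subclone 1 exceeded the parent 2-fold for 6 of these and fell short of it for 1, where 4.90% and 1.82% of all genes did. Subclone 2 gave 6 and 0, against 5.33% and 2.16%. The medians were 0.68 and 0.77, against 0.00 and 0.04 for all genes that passed. Of the higher genes in subclone 1, CXCL2 (log2 ratio 1.03), IL8 (1.01) and SOD2 (1.00) lay at the limit. The list was chosen with earlier results of these data known, so these values describe it and are no test. CXCL1, a neutrophil chemokine, measured 1.79 RPKM in the parental cells, 21.9 in subclone 1 and 21.6 in subclone 2. BIRC3, an inhibitor of apoptosis induced by NF-kB, measured 8.97, 30.8 and 39.2 RPKM, and IL1B 5.06, 9.99 and 16.7. IL1A, CXCL2, SOD2 and IL8 completed the higher genes, IL8 in subclone 1 and IL1B in subclone 2 only, and REL, on 13, 5 and 7 reads, was the lower one. REL passed the filter mainly through its level in the parent, 2.23 RPKM against 0.837 in subclone 1 and 1.14 in subclone 2, which favoured a call of lower. The other NF-kB subunits stayed within 2-fold of the parent. Their log2 ratios were 0.11 and 0.24 for RELA, 0.12 and 0.26 for NFKB1, -0.18 and 0.17 for NFKB2, and 0.56 and 0.11 for RELB. TNFRSF1A, a receptor of TNF, was the most abundant at 190.4, 230.8 and 255.5 RPKM. TNF had 1 read in subclone 1 and 0 elsewhere, and CCL2, IL6 and CXCL10 were not listed. SELE, an endothelial selectin induced together with VCAM1, had 1 read in the parent and 0 in the subclones. Whether these genes share a regulator with VCAM1 was not tested.

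The genes around each adhesion molecule were taken as 5 expressed genes on either side, a description chosen after values were seen. Around VCAM1 the 10 neighbours had medians of -0.10 and -0.13, with 0 at least 2-fold higher and 1 lower in each subclone, S1PR1 at -1.74 and -1.33. S1PR1 passed the filter only through its level in the parent, 1.90 RPKM against 0.498 in subclone 1 and 0.694 in subclone 2. Around ICAM1 the medians were -0.06 and -0.05 and around MCAM 0.21 and 0.31, with 0 past 2-fold in either subclone. Around F11R they were 0.36 and 0.27, with TSTD1 past 2-fold at 1.12 and 1.09. Around L1CAM they were 0.60 and 0.50, with 3 neighbours higher, and in subclone 2 over subclone 1 the neighbours ran only from -0.32 to 0.04, against -2.62 for L1CAM. The remaining members had neighbours past 2-fold as well. These included CXCL17 near CEACAM1 (3.12 and 2.96), HHLA2 near ALCAM (2.20 and 2.69), APOE near BCAM (2.87 and 0.29) and BCO2 near NCAM1 (2.47 and 1.54). CXCL17 (0.256 RPKM in the parent), APOE (0.546) and BCO2 (0.536) passed the filter only through the subclones. Lower ones were APOC1 near BCAM (-0.25 and -1.77) and KEAP1 near ICAM3 (-0.89 and -1.14).

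**Figure D5:**
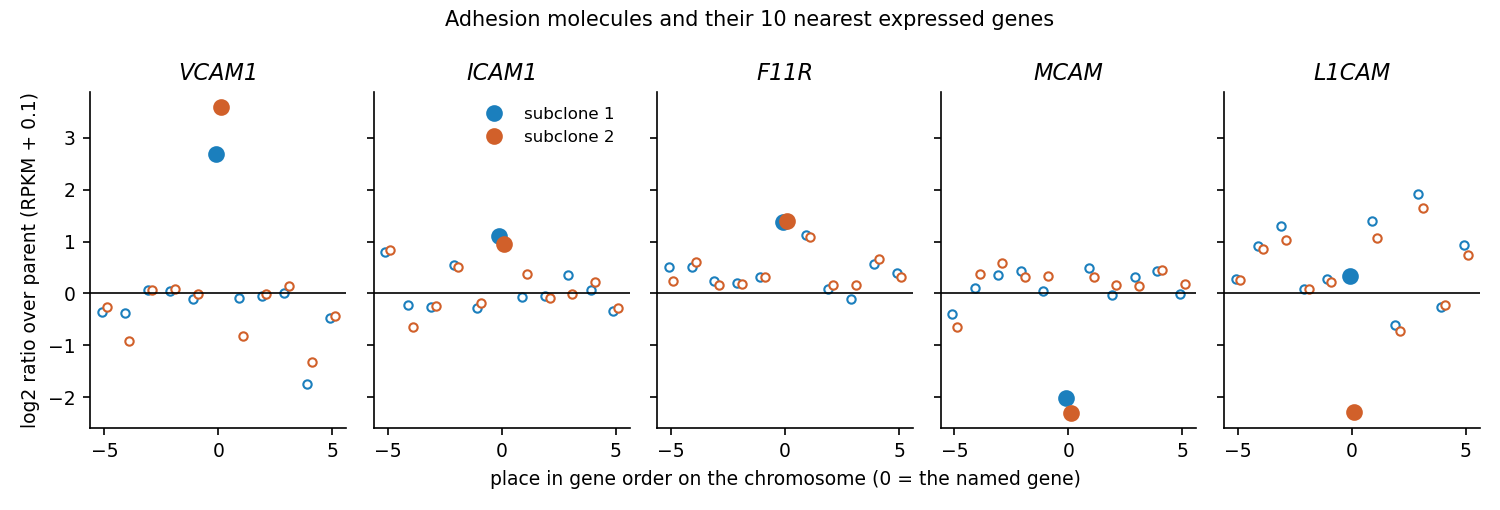
Log2 ratio over the parent of (RPKM + 0.1) for VCAM1, ICAM1, F11R, MCAM and L1CAM (filled, at place 0) and for the 5 expressed genes on either side of each in gene order (open). VCAM1 lies at 2.68 and 3.59 over the parent, with its highest neighbours at 0.07 and 0.14.

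The markers of other cell types were examined because VCAM1, ICAM1 and MCAM are also endothelial. The libraries carried KRT8 at 1614, 1641 and 1742 RPKM and HNF4A at 11.7, 11.9 and 16.0 RPKM, which are epithelial and hepatic markers. ALB measured 2.46, 49.5 and 68.8 RPKM, and the 12 hepatocyte markers summed to 2593, 2829 and 2897 RPKM, nearly all of it KRT8 and KRT18 (953.1, 1075 and 1048). Of 9 that passed, 4 were past 2-fold higher in subclone 1 (ALB, APOB, TF and FGB) and 3 in subclone 2 (ALB, APOB and FGB). The shares of all genes that passed were 4.90% and 5.33%. APOB passed the filter only through the subclones, at 1.23 and 4.17 RPKM against 0.300 in the parent, which favoured a call of higher. Secreted hepatocyte proteins APOA1 (1, 3 and 2 reads), SERPINA1 (1, 4 and 1) and TTR (0, 0 and 2) were near 0, and AHSG had 9, 7 and 7 reads. Of 12 endothelial markers, 8 were listed and 3 passed. The defining markers CDH5 (0, 1 and 0 reads) and VWF (2, 1 and 1 reads) were near 0, and CLDN5, ERG and PLVAP were not listed, while PECAM1 and KDR were past 2-fold in 1 subclone each and LYVE1 was lower in both. LYVE1 passed the filter only through its level in the parent, 2.39 RPKM against 0.948 in subclone 1 and 0.756 in subclone 2, which favoured a call of lower. The endothelial sum was 7.50, 13.0 and 8.46 RPKM. Of 10 leukocyte markers, 8 were listed and 3 passed, and 0 of these were past 2-fold in either subclone. PTPRC had 1, 0 and 0 reads, and CD3E was not listed. CD79A measured 7.79, 11.9 and 10.3 RPKM and LYZ 1.03, 1.00 and 1.40 RPKM, and CD14 had 1, 8 and 0 reads. CD68 made up most of sums of 84.8, 126.6 and 112.0 RPKM. Of 10 fibroblast markers, 6 were listed and 3 passed. LUM (log2 ratios 1.24 and 1.05) and DCN (2.37 and 1.71) were past 2-fold higher in both subclones, and COL3A1 was lower at -0.97 and -3.01, past 2-fold in subclone 2. COL1A1 had 9, 11 and 1 reads and COL1A2 had 1, 1 and 0, while PDGFRA, PDGFRB, ACTA2 and FAP were not listed. The sums were 15.7, 31.2 and 24.3 RPKM, to which LUM contributed most. The part of other cell types in the levels of the 10 genes was not tested beyond these markers.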

How the data were processed

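TruSeq libraries were prepared from RNA of the 3 cultures, and the authors deposited RPKM per gene with Entrez number and symbol. The submitters' processing notes name hg19, and the aligner, counter and strand handling are not given in the sources used here. Genes missing from a file were set to 0. Reads were rebuilt from the RPKM as whole multiples (genes resolved held 99.45 to 99.53% of the totals), by a rule revised after the values were seen and tested on simulated data. The simulation started from the rebuilt lengths and totals, so it cannot show that these are right. The scale of the totals was chosen by gene lengths that matched reference transcripts, 73.5% as used against 45.2% with the totals doubled. All read counts and counting intervals depend on that choice. Ratios were log2 of (RPKM + 0.1), which understates changes of low genes, and a call needed at least 2-fold and a mean of at least 1 RPKM over the 3 libraries. That filter favours calls for genes that pass it only through the libraries where they are high. This held for MCAM and for other low genes such as ITGB3, LYVE1, S1PR1, APOB, VSIG2 and DCN. The named genes were the 10 members, list genes past 2-fold with the most abundant and the receptors or ligands of members, and the 5 genes nearest to VCAM1. Members and lists were chosen with earlier results of these data known. The rule was followed except that the neighbours, the motif, a few low genes and the counting-interval rule were chosen after values were seen. Gene places came from GENCODE on GRCh38 and were not used with the RPKM build. Computation used scipy 1.17.1, pandas 2.3.3 and numpy 2.4.6 under Python 3.11.15. A gene of the lists is counted but not reported by name here.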

Additional observations from a re-analysis of the deposited data

Results flagged for a closer look

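ICAM3, BCAM and L1CAM lay above the parent in subclone 1 and below it in subclone 2. Their log2 ratios over the parent were 0.35 and -0.02 for ICAM3, 0.15 and -0.01 for BCAM, and 0.34 and -2.28 for L1CAM. The difference between the subclones was not tested, since each had 1 library. Scaling to GAPDH turned the values of ICAM3 and BCAM in subclone 2 to 0.04 and 0.05. The counting intervals of both folds included 1 for ICAM3 and BCAM. For L1CAM the fold in subclone 1 over the parent, 1.30 (0.676 to 2.54), also had an interval that included 1, and that in subclone 2 did not. None of these genes thus differed from the parent beyond counting error in both subclones.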

How the results depend on the processing

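No paired analysis was possible because each line had 1 library, and no library could be left out for the same reason. Over all genes that passed, the counts of those 2-fold higher and lower were 557 and 207 for subclone 1 against the parent, 606 and 246 for subclone 2 against the parent, and 161 and 158 for subclone 2 against subclone 1. In that order, a pseudocount of 1 gave 347 and 117, 380 and 150, and 80 and 77, and no filter gave 1523 and 884, 1553 and 941, and 842 and 902. A mean of at least 5 RPKM gave 233 and 71, 253 and 93, and 43 and 46, a 1.5-fold limit 1317 and 848, 1444 and 830, and 540 and 467, and the counting interval, added after the data were seen, 2283 and 2186, 2603 and 2070, and 1349 and 980. Scaling to ACTB, which moved the median of all genes by -0.13, gave 328 lower in subclone 1. Higher genes then made up 57.8% of calls instead of 72.9%. Between the subclones ACTB (median 0.12) gave 64.0% and GAPDH (0.12) gave 62.6% instead of 50.5%.

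For the adhesion molecules, scaling to ACTB or to GAPDH put 1 (VCAM1) past 2-fold between the subclones, as did a 1.5-fold limit. Without the filter, 2 were lower in subclone 2 than in the parent (MCAM and L1CAM) and 1 than in subclone 1 (L1CAM). At a mean of at least 5 RPKM MCAM was no longer tested and 0 were lower in either subclone. The 1.5-fold limit gave 4 higher in subclone 2. The counting interval gave 2 lower in subclone 1, 4 higher in subclone 2, and 2 higher and 1 lower between the subclones. ICAM1 fell under 2-fold in subclone 1 with ACTB (0.98), leaving 2 higher there, and passed it in subclone 2 with GAPDH (1.02), giving 3. Of 210 recomputed log2 ratios of single genes, 202 stayed within the counting interval. This count is no measure of stability, because the wide intervals of genes with few reads are hard to leave. Over the parent, which had 0 reads of NCAM1, its interval had no upper bound. Its log2 ratio in subclone 1 over the parent ran from 0.10 to 3.05 and still counted as within. Of the 210, sign changed in 5, all with a counting interval that included 1. With GAPDH these were ICAM3 (-0.02 to 0.04), BCAM (-0.01 to 0.05) and ALCAM (-0.03 to 0.04) in subclone 2 over the parent. F11R between the subclones went from 0.02 to -0.01 when median centred and to -0.03 by upper quartile. The 8 outside their interval were MCAM (-1.42) and L1CAM (-0.73) in subclone 2 over the parent and L1CAM (-0.91) between the subclones with a pseudocount of 1, ALCAM in subclone 1 over the parent with ACTB (-0.43), and, between the subclones, ICAM1 (-0.03) and ALCAM (0.40) with ACTB and ICAM1 (-0.04) and ALCAM (0.39) with GAPDH. The cause was not tested. In the subclones L1CAM, NCAM1 and MCAM rested on 24 reads or fewer, which limits what can be seen of them at this depth.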
